A study of Mus musculus with 16 samples.

Results

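The immunity-related GTPases (IRG proteins) are large GTPases that mouse cells make in response to interferons, above all interferon-γ. They load onto the vacuoles in which some bacteria and protozoa live, together with the guanylate-binding proteins, and help to break these vacuoles open. A regulatory class (Irgm1, Irgm2 and Igtp, also called Irgm3) sits on the cell's own membranes and keeps an effector class (Iigp1, Tgtp1, Tgtp2, Ifi47 and Gm12250) inactive there, and placing the effectors on a vacuole depends on the autophagy conjugation proteins. In tumors their transcripts are best known as a readout of interferon exposure.

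IRG transcripts were measured in B16F10 tumors, which grow from a melanoma line of C57BL/6 origin injected under the skin of lean C57BL/6J mice or obese, leptin-deficient C57BL/6J-ob/ob mice that were 6 weeks old. The 9 genes described were chosen by symbol from the 45777 genes of the expression table, and the family was picked with its levels in these tumors already known, so the levels, fold changes and calls of the members are a description and support nothing further. The groups were lean tumors before therapy, lean tumors after the topoisomerase inhibitor etoposide (ETS; 20 mg/kg, 5 intraperitoneal injections, tumor taken a day after the course), obese tumors before therapy and obese tumors after the same ETS course, with 4 tumors in each. The same line was injected in every group, so the groups are distinguished by host and by the ETS course. Tumors taken before therapy and after the course may also differ in growth time and size. No vehicle injection is described for the sequenced groups. These differences cannot be told apart from ETS itself. Nothing in the labels says that each tumor came from a separate mouse, so the spread quoted is that between these samples, which may in part be technical.

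Total counts ran from 47199949 to 61655287 per tumor, so that even the lowest members rested on counts that could be read in nearly every tumor. The ob allele is a point mutation of the host, so Lep reads do not check the labels. Lep counts were 0 to 18 in the lean pre-therapy tumors and 0 in all lean tumors after ETS, and they were 6 to 537 in obese tumors before therapy and 8 to 408 after ETS. The summed level of 7 melanocyte markers was 18015 to 22588 CPM (TMM-scaled counts per 1000000 counts of the library) in lean tumors before therapy and 22712 to 25997 CPM after ETS. It was 11136 to 15043 CPM in obese tumors before therapy and 10662 to 25021 after ETS, so that the markers of the injected line were abundant in all 16 tumors. In bulk tumor RNA, fewer cells of a type and less RNA per cell cannot be told apart.

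The members lie in 3 clusters of the mouse genome (GRCm38.p6). Irgm1, Tgtp1, Tgtp2 and Ifi47 lie within chr11:48865245-49096987, and Gm12250, Igtp and Irgm2 lie within chr11:58183843-58222783. The other cluster, on another chromosome, holds Gm4951 and Iigp1.

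The 250 bases upstream of the annotated start were available from RefSeq (GRCm38.p6) for the 7 members on chromosome 11. They were searched on both strands for an interferon-stimulated response element (ISRE; GAAANNGAAA) and an interferon-γ-activated site (GAS; TTCNNNGAA), elements known to act in responses to interferons. The stretches with matches are shown because they show how alike the upstream DNA of several members is, on the strand of the gene, 5′ to 3′, with each match in capitals.
Irgm1: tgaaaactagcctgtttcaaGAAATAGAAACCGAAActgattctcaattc
Irgm2: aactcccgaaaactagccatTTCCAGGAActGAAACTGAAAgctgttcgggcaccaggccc
Igtp: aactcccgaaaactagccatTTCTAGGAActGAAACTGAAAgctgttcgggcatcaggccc
Tgtp1: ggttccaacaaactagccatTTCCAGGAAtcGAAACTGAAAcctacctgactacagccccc
Tgtp2: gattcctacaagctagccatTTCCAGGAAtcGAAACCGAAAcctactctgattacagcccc
Gm12250: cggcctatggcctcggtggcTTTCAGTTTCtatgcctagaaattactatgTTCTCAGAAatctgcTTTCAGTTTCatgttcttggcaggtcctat
These stretches come from chr11:48871421-48871470, chr11:58214882-58214942, chr11:58199491-58199551, chr11:48992294-48992354, chr11:49064253-49064313 and chr11:58183732-58183826 in that order; Irgm1, Tgtp1 and Tgtp2 are on the minus strand and the others on the plus strand.

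The ISRE letters were found upstream of 6 of the 7 members, against 3.04% of 27025 promoter windows of the same length, and the GAS letters upstream of 5 of 7, against 7.18% of the windows. Both were found for Irgm2, Igtp, Tgtp1, Tgtp2 and Gm12250, against 0.389% of all windows. Irgm1 held a pair of ISRE matches that overlap one another, and neither set of letters was in the window of Ifi47. In Irgm2, Igtp, Tgtp1 and Tgtp2 the GAS match was followed after 2 bases by the ISRE match. That arrangement, which was noticed in these windows and only then counted, occurred on either strand in 5 of the 27025 windows. The fifth was that of Gm12185, another IRG gene of the first cluster. These genes are close relatives, so their windows are not independent of one another, and a match is not a bound site.

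IRG transcripts were abundant in lean tumors before therapy and scarce in obese tumors. The 9 members together took 0.403 ± 0.109% of all counts in lean tumors before therapy (SD, n = 4), 0.0186 ± 0.0107% in lean tumors after ETS, 0.00463 ± 0.00347% in obese tumors before therapy and 0.0157 ± 0.00399% in obese tumors after ETS. In summed CPM the same groups were at 2485 to 4491, 104 to 367, 12.8 to 77.1 and 130.2 to 189.7. For each of the 9 members the lowest lean tumor before therapy was above the highest of the other 12 tumors, by a ratio of 3.75 for Irgm1 to 15.5 for Gm12250. For each member obese tumors before therapy had the lowest group mean. The means of lean and obese tumors after ETS lay in between, and these ETS groups overlapped one another. For Iigp1, Tgtp1, Tgtp2, Gm12250 and Gm4951 both ETS groups also overlapped obese tumors before therapy. The plot of each member by tumor shows the order and the overlaps.

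**Figure D1:**
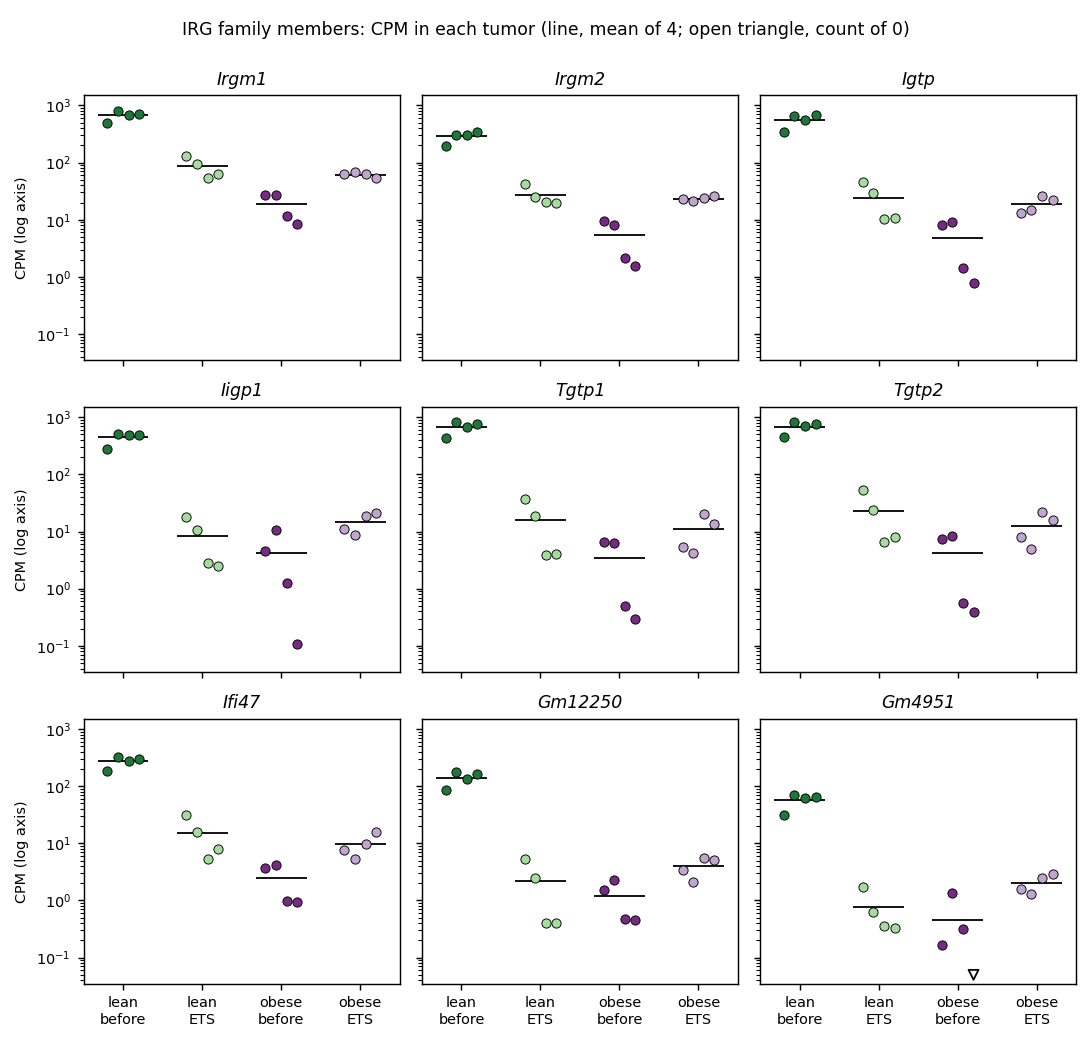
Each panel plots the CPM of an IRG gene on a log axis in the 16 tumors, with a point for each tumor, a line at the mean of 4 and an open triangle for the count of 0 of Gm4951. In each panel the 4 lean tumors before therapy lie above all other tumors, obese tumors before therapy have the lowest mean, and the ETS groups overlap.

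Among the regulators, Irgm1, which guards the cell's own membranes against effector loading, was at 490.4, 794, 681 and 706 CPM in lean tumors before therapy and at 131, 94.8, 54.4 and 63.9 CPM after ETS. In obese tumors it was at 27.4, 26.9, 11.5 and 8.28 CPM before therapy and at 62.8, 67.8, 61.8 and 52.7 CPM after ETS. Its lean and obese groups before therapy were far apart, its obese groups did not overlap, and its ETS groups did. Irgm1 was the member with the smallest fall in lean tumors, -2.96 ± 0.36 on the log2 scale (± SE), and it was 1.73 ± 0.35 higher after ETS than before in obese tumors.

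Irgm2, a Golgi-associated regulator, was at 192, 301, 307 and 344 CPM in lean tumors before therapy and 42.2, 25.3, 20.2 and 19.3 CPM after ETS. Its levels in obese tumors were 9.67, 8.07, 2.15 and 1.55 CPM before therapy and 22.8, 20.8, 23.5 and 26.3 CPM after ETS, so that the 4 obese tumors after ETS were close together and all above those before therapy. The log2 difference of ETS against pre-therapy tumors was -3.42 ± 0.46 in lean and 2.13 ± 0.45 in obese tumors.

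Igtp, the regulator found on the endoplasmic reticulum and lipid droplets, was at 341, 653, 554 and 674 CPM in lean tumors before therapy and 46.1, 28.8, 10.4 and 10.9 CPM after ETS. In obese tumors it was at 8.08, 9.01, 1.45 and 0.775 CPM before therapy and 13.2, 14.8, 26.1 and 22.0 CPM after ETS. The highest obese tumor before therapy was below the lowest after ETS, and tumors 3 and 4 before therapy held several-fold less than tumors 1 and 2. The log2 differences were -4.53 ± 0.68 in lean and 1.99 ± 0.64 in obese tumors.

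Among the effectors, Iigp1 (Irga6), the member whose GTPase cycle is best studied, was at 277, 514, 498 and 496 CPM in lean tumors before therapy and 18.2, 10.5, 2.86 and 2.53 CPM after ETS. In obese tumors its levels were 4.62, 10.7, 1.25 and 0.106 CPM before therapy and 10.8, 8.64, 18.6 and 20.9 CPM after ETS. Obese tumor 4 before therapy held a count of only 6 and tumor 2 a count of 538, and the obese groups overlapped through tumor 2. Iigp1 fell by 5.71 ± 0.91 on the log2 scale in lean tumors, a 52.4-fold fall, while the obese difference of 1.84 ± 0.80 was not called.

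Tgtp1 and Tgtp2 (Irgb6) are near-identical copies: of all stretches as long as a read in the annotated transcripts, 70.1% of those of Tgtp1 also occur in Tgtp2, and 76.6% of those of Tgtp2 in Tgtp1. Tgtp1 also overlaps Gm42074. How reads were shared between the copies is thus uncertain, and their values are best read together. Tgtp1 was at 440.0, 827, 677 and 758 CPM in lean tumors before therapy and 37.3, 18.9, 3.91 and 4.03 CPM after ETS, and at 6.56, 6.36, 0.501 and 0.299 CPM in obese tumors before therapy and 5.33, 4.29, 20.5 and 13.6 CPM after ETS. Both copies were high in lean tumors before therapy only. Tgtp2 was at 444, 829, 692 and 764 CPM in lean tumors before therapy and 54.0, 23.6, 6.52 and 7.91 CPM after ETS. In obese tumors Tgtp2 was at 7.54, 8.19, 0.551 and 0.387 CPM before therapy and 8.14, 4.97, 21.6 and 15.9 CPM after ETS. The ratio of Tgtp2 to Tgtp1 was at most 1.02 in lean tumors before therapy and 1.05 to 1.96 in the other tumors, where both were low. The log2 differences of Tgtp1 and Tgtp2 after ETS were -5.40 ± 0.96 and -4.89 ± 0.90 in lean tumors. In obese tumors, where the groups overlapped, they were 1.70 ± 0.87 and 1.62 ± 0.83.

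Ifi47 (Irgd) was at 185, 325, 279 and 296 CPM in lean tumors before therapy and 30.9, 15.8, 5.39 and 7.98 CPM after ETS. It was at 3.75, 4.18, 0.985 and 0.951 CPM in obese tumors before therapy and 7.65, 5.36, 9.63 and 15.7 CPM after ETS, without overlap. Its log2 differences were -4.17 ± 0.58 in lean and 1.98 ± 0.56 in obese tumors. The annotated gene overlaps Gm12188, and whether the counting used the strand of reads is not stated.

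Gm12250 (Irgb10), which with guanylate-binding proteins acts on bacterial membranes, was at 84.9, 178, 133 and 164 CPM in lean tumors before therapy and 5.35, 2.47, 0.411 and 0.402 CPM after ETS. Its levels were 1.50, 2.31, 0.468 and 0.458 CPM in obese tumors before therapy and 3.36, 2.11, 5.47 and 5.05 CPM after ETS. Its fall in lean tumors, -6.02 ± 0.75 on the log2 scale, was the largest among the 8 members tested and ranked 2 of 16209 tested genes. The obese groups overlapped, with a log2 difference of 1.78 ± 0.69.

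Gm4951 (chr18:60212004-60248440), the neighbour of Iigp1 (chr18:60373616-60392634), was the lowest member, at 31.5, 70.7, 63.1 and 65.9 CPM in lean tumors before therapy and 1.72, 0.618, 0.357 and 0.332 CPM after ETS. In obese tumors it was at 0.165, 1.37, 0.317 and 0 CPM before therapy and 1.59, 1.31, 2.45 and 2.86 CPM after ETS. Its count of 0 in obese tumor 4 before therapy excluded it from the test, since genes with a 0 in any tumor were left out, and from a fit with no such exclusion its log2 differences were -6.26 ± 0.77 in lean and 2.16 ± 0.72 in obese tumors. It overlaps Gm5970, another gene of the family.

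ETS in lean tumors was accompanied by a fall of IRG transcripts to levels that overlapped those of obese tumors after ETS. In edgeR's quasi-likelihood test with Benjamini-Hochberg adjustment over all genes, 8 of the 8 members tested were called lower at an adjusted p of 0.05, where 22.8% of the 16209 tested genes were called lower. For the 9 members the lean groups did not overlap, as for 20.3% of tested genes in that direction. Falls of the 8 ran from 7.77-fold for Irgm1 to 64.9-fold for Gm12250, and from the fit with no exclusion that of Gm4951 was 76.8-fold. Since these contrasts chose the family, nothing is read from the counts.

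In obese tumors 4 of the 8 members tested were higher after ETS. Irgm1, Irgm2, Igtp and Ifi47 were called higher, where 21.2% of tested genes were called higher, and the groups of these 4 did not overlap, as for 16.4% of tested genes. The same 4 were among those without overlap in the lean groups, and 2.60% of tested genes were lower in lean and higher in obese tumors in this way. The log2 differences of the 8 ran from 1.62 for Tgtp2 to 2.13 for Irgm2, or 3.07-fold to 4.39-fold. The count of 4 was 6 without obese tumor 2 before therapy and 3 without obese tumor 3 before therapy. The difference between the effects of ETS in the hosts, lean minus obese, ran from -7.80 for Gm12250 to -4.69 for Irgm1 and was called lower for 8 of 8 members tested, against 10.1% of tested genes.

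The hosts were furthest apart before therapy. Obese against lean tumors gave log2 differences of -5.17 ± 0.40 for Irgm1, -5.75 ± 0.52 for Irgm2, -6.86 ± 0.77 for Igtp, -6.75 ± 0.96 for Iigp1 and -7.64 ± 1.07 for Tgtp1. They were -7.37 ± 1.02 for Tgtp2, -6.80 ± 0.67 for Ifi47, -6.91 ± 0.79 for Gm12250 and, from the fit with no exclusion, -6.99 ± 0.80 for Gm4951. The 8 tested were called lower, against 12.9% of tested genes, and the groups of the 9 did not overlap, as for 14.4% of tested genes in that direction. Among 16209 genes ranked from the most negative difference, Tgtp1 was at rank 3, Tgtp2 at 4, Gm12250 at 6, Igtp at 8 and Ifi47 at 9. Irgm1, the last of the 8, was at rank 46. This contrast shares its pre-therapy tumors with the ETS contrasts, so the 3 sets of differences are not independent.

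After ETS no member was called between the hosts. Obese against lean tumors after ETS gave log2 differences of -0.49 ± 0.34 for Irgm1, -0.20 ± 0.42 for Irgm2, -0.34 ± 0.60 for Igtp, 0.79 ± 0.76 for Iigp1, -0.55 ± 0.82 for Tgtp1 and -0.86 ± 0.79 for Tgtp2. The values were -0.64 ± 0.52 for Ifi47, 0.90 ± 0.65 for Gm12250 and, with no exclusion, 1.44 ± 0.68 for Gm4951, and the groups of all 9 overlapped. By edgeR 0 of 8 members were called, against 5.58% of tested genes, 0 passed an unadjusted p of 0.05, against 25.0% of tested genes, and 0 were called by DESeq2, which gave no adjusted p for Iigp1, or by limma on TPM. With SEs of up to 0.82 (Tgtp1) these contrasts leave room for differences of several-fold, so equal levels are not shown.

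**Figure D2:**
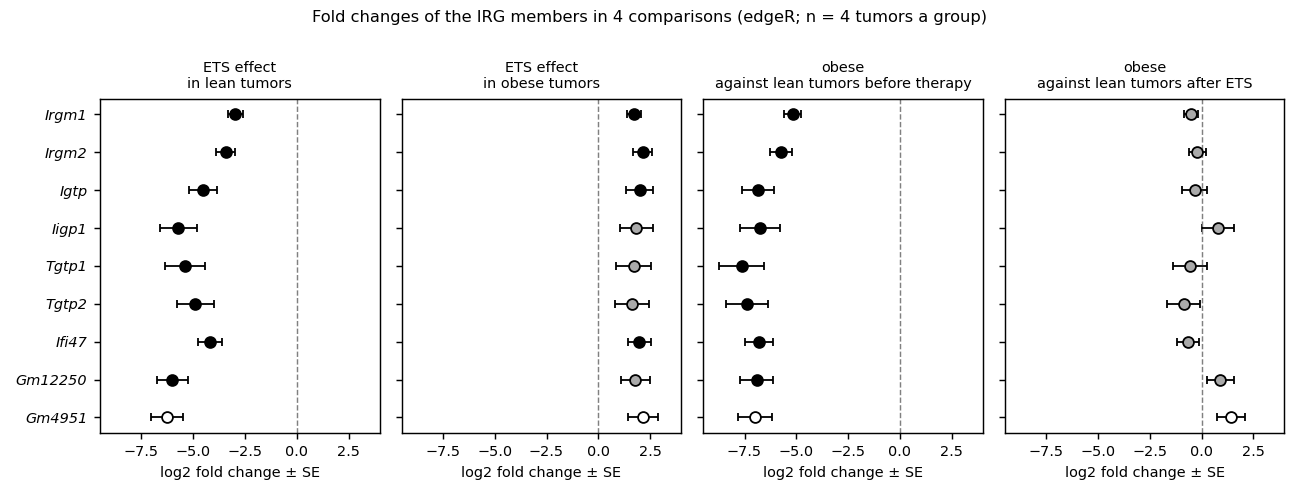
Each panel plots, for a comparison of groups of 4 tumors, the log2 fold change of each IRG gene with its SE. Black points were called at an adjusted p of 0.05, grey points were not, and white points are Gm4951 from the fit with no exclusion. Values lie between -6.26 and -2.96 for ETS in lean tumors, between 1.62 and 2.16 for ETS in obese tumors, between -7.64 and -5.17 for obese against lean tumors before therapy, and on both sides of 0 after ETS.

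The make-up of the family also differed with its level. On the TPM scale, which is per transcript length and so lets members be compared, Irgm1 held 20.7 ± 1.77% of the family's summed TPM in lean tumors before therapy (SD, n = 4). It held 50.7 ± 9.05% in lean tumors after ETS, 54.6 ± 13.7% in obese tumors before therapy and 45.5 ± 10.9% in obese tumors after ETS. The 3 regulators together held 43.4% to 46.3% in lean tumors before therapy and 61.8% to 82.7% in the other 12 tumors, without overlap. Tgtp1 held 16.2 ± 0.397% in lean tumors before therapy and 5.55 ± 2.96% in those taken after ETS. Iigp1 held 8.17 ± 1.60% and 1.98 ± 0.678% in the same groups. In lean tumors before therapy the TPM order was Irgm1 at 661 ± 158, Igtp at 601 ± 189, Tgtp2 at 529 ± 154, Tgtp1 at 526 ± 154, Ifi47 at 333 ± 90.9 and Iigp1 at 275 ± 109. Irgm2 at 178 ± 49.8, Gm12250 at 113 ± 37.4 and Gm4951 at 39.2 ± 13.7 came last. Neighbours from Irgm1 to Tgtp1, and from Ifi47 to Irgm2, differed by less than the larger of their SDs. These SDs are between tumors and include shifts that the members share. Within each of the 4 tumors Ifi47 was above Iigp1, Iigp1 above Irgm2 and Irgm2 above Gm12250. Irgm1 was below Igtp in tumor 4, and Tgtp2 was just below Tgtp1 in tumor 2. Across tumors the range of Gm12250 overlapped that of Irgm2, and Gm4951, at 18.7 to 48.0 TPM, lay below Gm12250, at 60.6 to 145 TPM, without overlap.

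**Figure D3:**
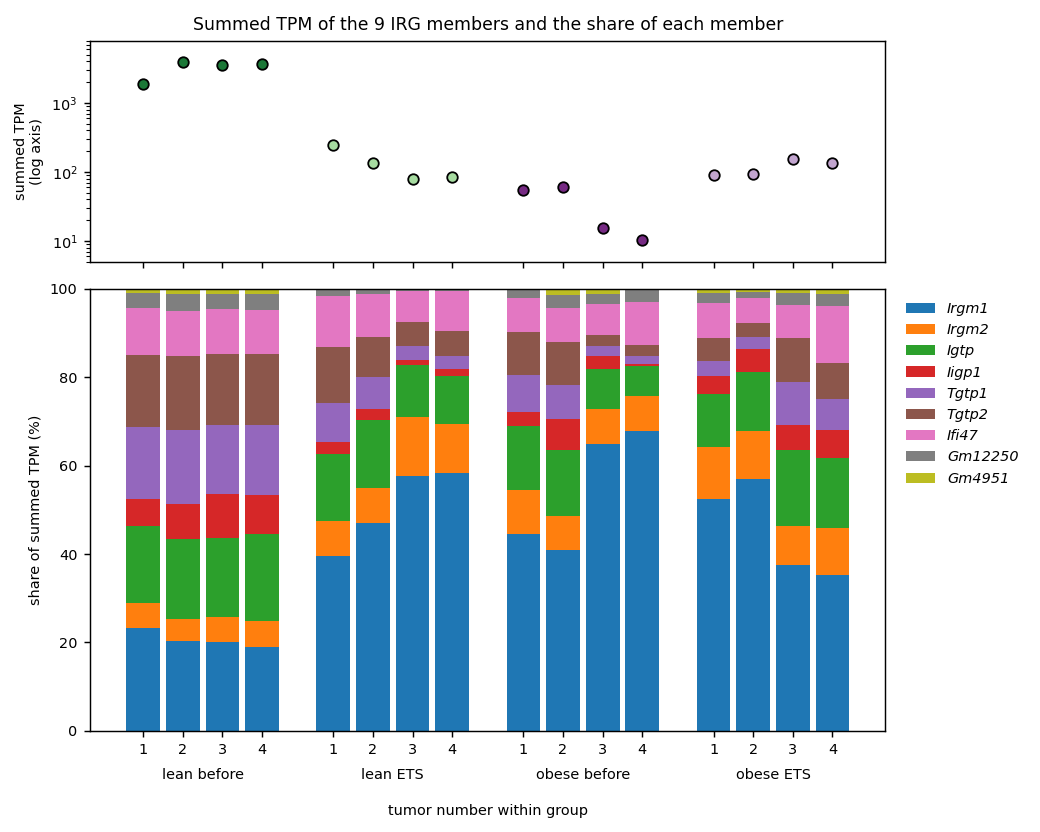
The upper panel plots the summed TPM of the 9 IRG genes in each tumor on a log axis and the lower panel the share (%) of each gene in that sum, by group and tumor number. The 3 regulators (bottom of each bar) hold 43.4% to 46.3% in lean tumors before therapy and 61.8% to 82.7% in the other tumors.

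Within 3 of the groups most members shared their high and low tumors. In lean tumors before therapy the 8 members that passed the filter were all lowest in tumor 1, with a median log2 deviation from the group mean of -0.58. In lean tumors after ETS tumor 1 was above the mean for 8 of 8 (median 1.46) and tumors 3 and 4 were below it for 8 of 8 (-1.12 and -0.93). In obese tumors before therapy tumors 1 and 2 were above the mean for 8 of 8 (1.33 and 1.41) and tumors 3 and 4 below it for 8 of 8 (-0.96 and -1.64). In obese tumors after ETS tumors 3 and 4 had medians of 0.47 and 0.49 and tumors 1 and 2 of -0.28 and -0.70, while Irgm1 was highest in tumor 2 (0.15) and lowest in tumor 4 (-0.21). The SD of log2 CPM, as the median over these members, was 0.40 in lean tumors before therapy, 1.25 in lean tumors after ETS, 1.53 in obese tumors before therapy and 0.62 in obese tumors after ETS. Across all tested genes the median SD was 0.20, 0.21, 0.20 and 0.26 in the same groups.

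The interferon pathway that acts on these genes was followed from ligand to target. Of 21 interferon genes, 1 (Ifnz, of the type I family) passed the filter, and it was called higher after ETS in lean tumors, by 1.54 ± 0.40 on the log2 scale. Ifng, whose product is the main inducer of the IRG genes, had counts of 83, 176, 65 and 147 in lean tumors before therapy, 4, 0, 0 and 0 in lean tumors after ETS, 0, 4, 0 and 0 in obese tumors before therapy and 4, 0, 0 and 0 in obese tumors after ETS. Only the lean tumors before therapy thus held more than 4 Ifng counts each. Ifnb1, which encodes interferon-β, had a count of 4 in a lean tumor before therapy, 3 in an obese tumor after ETS and 0 in the other tumors. A count of 0 allows up to 3 counts, which is counting error only.

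Receptors and their kinases stayed within 1 log2 unit in each comparison. Of 7, 4 were called lower and 0 higher after ETS in lean tumors, where 22.8% of tested genes were called lower (median log2 difference -0.35, against -0.01 over all genes tested), with Ifngr1, the ligand-binding chain of the interferon-γ receptor, at -0.72 ± 0.13 and Jak2, a kinase bound to that receptor, at -0.72 ± 0.09. In obese tumors 3 of 7 were called higher after ETS, against 21.2% of tested genes (median 0.26, against 0.01 over all genes tested), among them Jak1 at 0.34 ± 0.10, whose call was lost without obese tumor 4 after ETS.

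The transcription factors that carry interferon signals were lower in lean tumors after ETS and mostly higher in obese tumors. All 8 listed passed the filter, and 8 of 8 were called lower after ETS in lean tumors (median -2.05), against 22.8% of tested genes, and lower in obese than in lean tumors before therapy (median -3.87, against 0.02 over all genes tested), against 12.9%. In obese tumors 6 of 8 were called higher after ETS (median 1.20), against 21.2% of tested genes, and after ETS 0 of 8 were called between the hosts by edgeR, against 5.58%. Irf1, an early interferon response gene whose product acts at ISRE-like sites, was -3.46 ± 0.28 after ETS in lean tumors, while its difference of 0.36 ± 0.26 in obese tumors was not called. Irf7, which amplifies type I interferon responses, rose by 3.79 ± 0.52 in obese tumors after ETS, against -1.77 ± 0.47 in lean tumors.

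Of 6 feedback inhibitors, 3 were called lower after ETS in lean tumors, against 22.8% of tested genes, and 4 higher and 1 lower in obese tumors, where 21.2% were called higher. Without obese tumor 3 before therapy 2 inhibitors were called higher. Socs1, which blocks the receptor's kinases, was at -3.38 ± 0.32 in lean and 1.60 ± 0.33 in obese tumors. Usp18, a brake on the type I receptor, was 3.33 ± 0.43 higher after ETS in obese tumors, while its lean difference of -0.83 ± 0.38 was called only without obese tumor 3 after ETS. The guanylate-binding proteins, which join the IRG proteins at vacuoles, had 5 of 11 genes that passed the filter. All 5 were called lower after ETS in lean tumors, higher after ETS in obese tumors and lower in obese than lean tumors before therapy, against 22.8%, 21.2% and 12.9% of tested genes, with Gbp2 at -4.88 ± 0.73, 1.81 ± 0.65 and -6.09 ± 0.77. Without obese tumor 3 before therapy 3 were called higher after ETS in obese tumors, and without obese tumor 4 before therapy 8 passed the filter and 8 were called lower in lean tumors after ETS and 8 between the hosts before therapy. The obese call of Gbp2 was lost without obese tumor 3 or 4 before therapy or obese tumor 1, 3 or 4 after ETS.

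The autophagy conjugation proteins, on which placement of IRG effectors depends, were called about as often as other genes in obese tumors. After ETS 7 of 12 were called higher and 1 lower in lean tumors, where 43.8% of tested genes were called in either direction. Of all genes called there, 48.0% were higher. In obese tumors 4 were called higher and 1 lower, where 40.2% of tested genes were called in either direction, and 1 of 12 was called between the hosts before therapy, against 26.4% of tested genes. Map1lc3a, an Atg8 homologue, was at 1.38 ± 0.20 in lean and 0.82 ± 0.20 in obese tumors. Atg3, the enzyme that conjugates such proteins to lipid, was at -0.26 ± 0.09 and -0.41 ± 0.09, and its lean call was lost without lean tumor 1 or 2 before therapy or any lean tumor after ETS. The median of the list was 0.43 in lean tumors and 0.18 in obese tumors, against -0.01 and 0.01 over all genes tested.

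**Figure D4:**
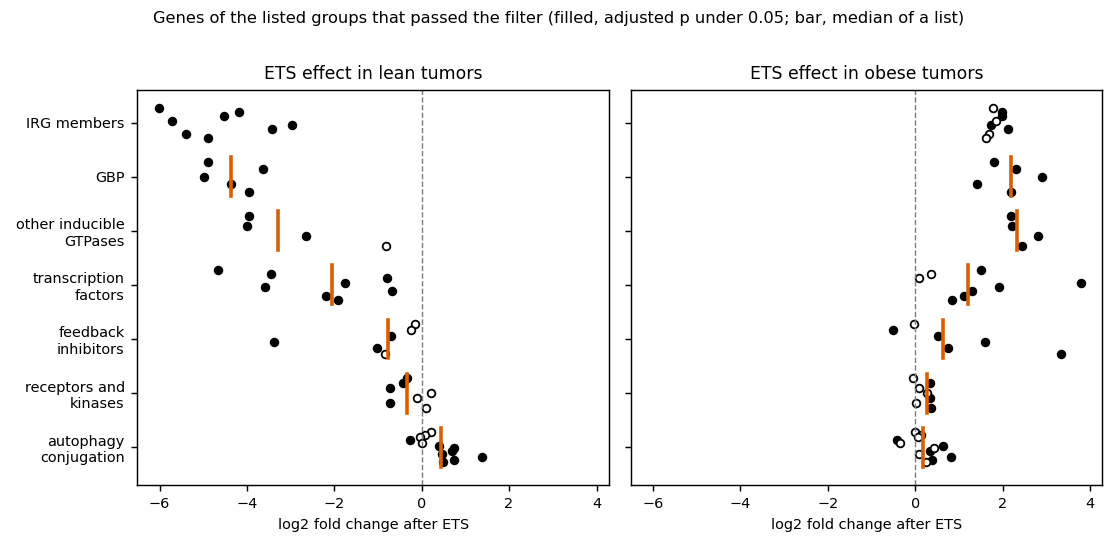
Each point is the log2 fold change of a gene after ETS, in lean tumors (left) and obese tumors (right), for genes of the listed groups that passed the filter, filled where the adjusted p was under 0.05. Orange bars mark list medians, such as -2.05 and 1.20 for transcription factors and 0.43 and 0.18 for autophagy conjugation proteins.

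Of 10 other genes of the IRG family in the table, 3 passed the filter, and 7 had a count of 0 in at least 1 tumor. Of these 3, 2 were called lower and 1 higher after ETS in lean tumors, where 43.8% of tested genes were called in either direction. In obese tumors 3 were called higher after ETS, against 21.2% of tested genes. Before therapy 2 were called lower in obese than in lean tumors, against 12.9% of tested genes, and 1 higher. Gm12185 was at 44.1 to 123 CPM in lean tumors before therapy and at 0 to 1.51 CPM in the other 12 tumors, and it shares read-length stretches with Tgtp1 and Tgtp2. Gm4841 was at 11.6 to 37.5 CPM in lean tumors before therapy and 0 to 1.23 CPM elsewhere. Irgq, a divergent relative, was called higher in all of these comparisons. Its log2 difference after ETS was 0.91 ± 0.10 in lean and 0.68 ± 0.10 in obese tumors. Obese against lean tumors before therapy gave 0.49 ± 0.10, where 13.5% of tested genes were called higher. Irgq thus went against the members in lean tumors and between the hosts before therapy, but rose like them after ETS in obese tumors.

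The 3 nearest genes on each side of each cluster were looked at as neighbours. Among them were Trim41 at 37.5 to 48.6 CPM over the 16 tumors, Cnot8 at 58.0 to 77.4, Dctn4 at 31.3 to 49.4 and Rbm22 at 27.9 to 42.2, each with overlapping levels in lean and obese tumors before therapy. Gemin5, beside the second cluster, was at 102.8 to 111 CPM in lean and 75.8 to 87.2 CPM in obese tumors before therapy, without overlap, and at 65.8 to 76.3 CPM in lean tumors taken after ETS. Trim7, beside Irgm1, was at 1.83 to 4.09 CPM in lean tumors before therapy and 8.26 to 12.9 CPM after ETS. It was at 6.16 to 9.26 CPM in obese tumors before therapy and 9.87 to 19.6 CPM after ETS. Smim3, beside Iigp1, was at no less than 1.19 CPM in any lean tumor before therapy and at 0.214 to 0.498 CPM in those taken after ETS, and before therapy it was lower in obese than in lean tumors, without overlap. Psme2b, which lies inside the first cluster and was singled out after its values were seen, was at 0.712 to 1.36 CPM in lean tumors before therapy and 0.0618 to 0.205 in the other tumors. The lowest of these values is a count of 3, so its levels outside lean tumors before therapy rest on few reads. Whether reads of similar genes were counted for it was not examined.

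The 10 genes most like the family were taken as those with the smallest root mean square difference, over the 16 tumors, between their standardised log2 CPM and the mean of the standardised members. Of 13305 genes with a mean of at least 1 CPM they were Batf2 (0.129), Gbp2 (0.139), Nlrc5 (0.148), Erap1 (0.150), Psmb9 (0.151), Tapbpl (0.173), Psmb8 (0.185), Tap2 (0.188), Gbp9 (0.189) and Il18bp (0.190). The median over all ranked genes was 1.36. Batf2, a bZIP transcription factor, was at 41.4 to 82.8 CPM in lean tumors before therapy, 1.64 to 3.66 after ETS, 0.159 to 1.28 in obese tumors before therapy and 1.36 to 2.67 after ETS. On deviations from the group means, which leaves out the differences between groups, the 10 differed from the members by 0.310 (Batf2) to 0.569 (Psmb8), against a median of 1.36 over all ranked genes. The 10 were picked by a measure over the same 16 tumors that includes these deviations, so small values here follow partly from the choice. The tumors share libraries and depth across genes, so this is a description.

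By group median, summed macrophage markers were higher in lean tumors before therapy and obese tumors after ETS than in the other groups, and summed T cell and NK cell markers were highest in lean tumors before therapy. The summed level of 8 macrophage markers was 398 to 1285 CPM in lean tumors before therapy, 49.3 to 417 after ETS, 40.1 to 253 in obese tumors before therapy and 349.7 to 1029 after ETS. Of the 8, 6 were called lower after ETS in lean tumors, against 22.8% of tested genes, and 6 higher after ETS in obese tumors, against 21.2%, and none was at 0 in a whole group. The lean count was 2 without lean tumor 1 or 2 before therapy or lean tumor 3 or 4 after ETS and 3 without lean tumor 4 before therapy. The macrophage sums of obese tumors after ETS overlapped those of lean tumors before therapy, while the IRG sums of these groups, 130.2 to 189.7 and 2485 to 4491 CPM, did not. The 7 T cell markers summed to 26.5 to 43.2 CPM in lean tumors before therapy, 1.36 to 3.41 after ETS, 3.24 to 3.96 in obese tumors before therapy and 1.68 to 4.31 after ETS. The only T cell marker that passed the filter was called lower after ETS in both hosts, by 2.61 in lean and 0.67 in obese tumors on the log2 scale. The only B cell marker that passed was called higher after ETS in both hosts, by 1.62 and 0.72. In either direction 43.8% of tested genes were called in lean and 40.2% in obese tumors. The 4 B cell markers summed to 1.09 to 2.25, 2.04 to 2.55, 0.989 to 1.60 and 1.92 to 2.57 CPM in the same order, so the lean groups overlapped. Cd2 was at 0 in all lean tumors after ETS and Cd3e in all obese tumors before therapy. The 6 NK cell markers summed to 32.3 to 58.0, 0.321 to 1.71, 0.0528 to 0.557 and 0.678 to 4.14 CPM in the same order, with Ncr1 at 0 in all obese tumors before therapy. The 5 dendritic cell markers summed to 16.2 to 34.5, 0.436 to 6.54, 0.352 to 1.29 and 1.72 to 3.69 CPM, with Siglech at 0 in all lean tumors after ETS. The part of these cells in the IRG levels was not tested.

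**Figure D5:**
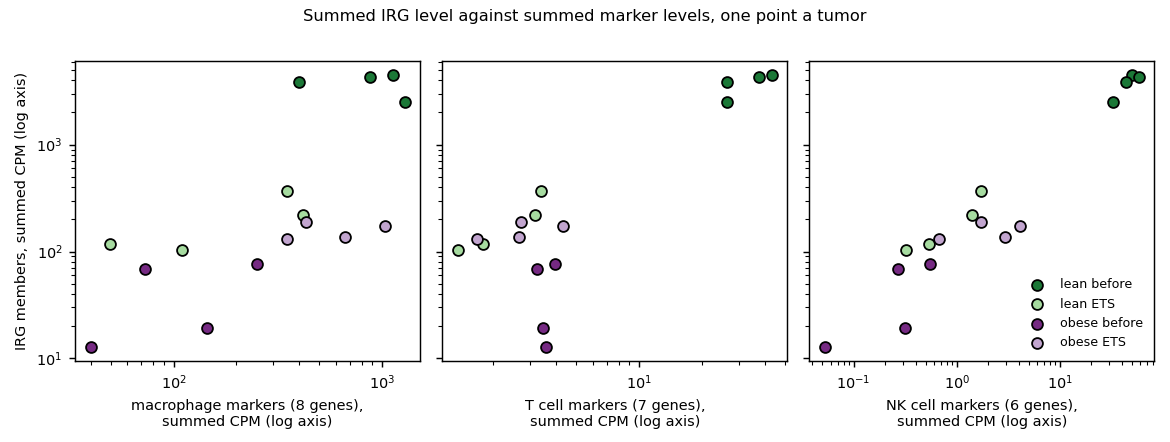
Each point is a tumor, with the summed CPM of the 9 IRG genes against the summed CPM of macrophage, T cell or NK cell markers, all on log axes. Lean tumors before therapy lie apart in T cell (26.5 to 43.2 CPM) and NK cell sums (32.3 to 58.0 CPM), while the macrophage sums of obese tumors after ETS (349.7 to 1029 CPM) overlap theirs (398 to 1285 CPM).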

How the data were processed

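RNA-seq of 16 B16F10 tumors in 4 groups was analysed, with groups and tumor numbers taken from the sample labels. Per the study's methods, the authors made stranded mRNA libraries, sequenced paired ends, aligned them to mm10 with HISAT2 2.1.0 and deposited StringTie 2.1.3b read counts per gene, which were not normalized. The TPM values deposited by the authors served for comparisons between members and as an alternative, and the deposited FPKM values were not used. A gene of the interferon pathway lists is not reported here by name. Whether counting used the strand is not given in the sources used here. After the study's rule of dropping each gene listed at 0 in any tumor (29568 of 45777 genes), 16209 were tested with edgeR 4.0.16 (R 4.3.3): quasi-likelihood test, TMM, a mean per group over all 16 tumors, Benjamini-Hochberg adjustment, threshold 0.05. The study's exact test on counts plus 1 was an alternative.

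The members, gene lists, markers and tests were chosen with earlier results of these data known. Named genes were the 9 members, listed pathway genes and the 10 most similar genes. The p threshold was applied to members only to give calls beside the share of all genes called. Log2 CPM used a prior count of 2. Promoters and positions are from RefSeq (GRCm38.p6). No tumors were duplicates, and the labels give no batch. The script was tested on simulated data. Alternatives were DESeq2 1.42.0 and its size factors, limma 3.58.1 on log2(TPM + 1) and log2(TPM + 0.1), other filters, fewer groups, a replicate block and leaving out each tumor. Leaving out each tumor was extended to the pathway lists and their named genes after the data had been seen.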

Additional observations from a re-analysis of the deposited data

Results flagged for a closer look

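Of 36 sets of 4 tumors examined (9 members in 4 groups), 1 held a tumor whose distance from its nearest neighbour was a larger part of the range than Dixon's 95% criterion allows. Iigp1 was at 277 CPM in lean tumor 1 before therapy, against 496 to 514 CPM in the other 3 tumors of the group. Chance gives such a tumor in about 1 set in 20. The same tumor was the lowest of its group for the other 7 members tested.

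For 4 members every lean tumor after ETS was below every lean tumor before therapy while every obese tumor after ETS was above every obese tumor before therapy, as for 2.60% of tested genes. These were Irgm1, Irgm2, Igtp and Ifi47, with log2 differences between the ETS effects (lean minus obese) of -4.69, -5.55, -6.52 and -6.15. The family was chosen for its pattern in these contrasts, so these differences are a description, and they were not tested in samples independent of that choice.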

How the results depend on the processing

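The direction of the members' differences was kept in 203 of 203 member values over the alternatives for ETS in lean tumors, 202 of 202 for ETS in obese tumors, 202 of 202 for the hosts before therapy and 186 of 186 for the difference between effects. After ETS, where the hosts overlapped, it was kept in 194 of 203, the exceptions being values of Irgm2, Igtp, Tgtp1 and Tgtp2 under TPM scaling, the replicate block or without lean tumor 1 after ETS. No member was called between the hosts after ETS under any alternative. DESeq2 gave no adjusted p for Iigp1 and called the 7 others lower in lean tumors after ETS. Members called higher after ETS in obese tumors numbered 3 to 6 over the alternatives. Under TPM + 0.1 the difference between effects moved by more than the spread between tumors for Iigp1 (-9.46) and Tgtp2 (-7.97).

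The number of all genes called between the hosts after ETS, 904, was the least stable count. It was 450 with no exclusion of genes with a 0, 69 with only the groups compared, 2078 by DESeq2 and 185 to 1340 when a tumor was left out. It fell to 513, 447, 236 and 185 without lean tumor 1, 2, 3 or 4 after ETS and to 231 without obese tumor 4 after ETS. The share of called genes that were higher was 58.7% there, 72.5% by the exact test and 73.9% with only the groups compared. TPM scaling moved the median of all genes by -0.26 in log2 (TPM + 1) for ETS in lean tumors, -0.21 for the difference between effects and 0.10 for the hosts after ETS, and under TPM + 0.1 by -0.12 for the hosts before therapy. With it, the share higher was 15.7% (TPM + 1) or 15.9% (TPM + 0.1) for ETS in lean tumors, against 48.0%, and 29.0% or 29.1% for the hosts before therapy, against 51.0%. It was 83.8% or 85.4% after ETS and 9.24% or 9.19% for the difference between effects, against 38.7%. The cause was not tested.

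Tumor numbers were shared between groups, and the main fit did not use them. Residuals of same-numbered tumors correlated at r of -0.11 to 0.45, and those of other pairs from different groups at -0.58 to 0.51. Of 16 tumors, 5 matched their own number best. These ranges overlap, so whether tumors with the same number share handling or a batch cannot be told from them. With the replicate block 1683 genes were called between the hosts after ETS, against 904 without it, and 6 members were called higher after ETS in obese tumors, against 4.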

Other observations

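Of 4 very large interferon-inducible GTPase and Mx genes tested (Mx1, Mx2, Gvin1 and Gm4070, the last 2 close copies), 4 were called higher after ETS in obese tumors, against 21.2% of tested genes, and 3 lower in lean tumors, against 22.8%. Gvin1 was at 31.9 to 64.7 CPM in lean tumors before therapy, 1.78 to 3.59 after ETS, 1.29 to 5.41 in obese tumors before therapy and 8.36 to 18.5 after ETS. Between the hosts after ETS 2 of the 4 were called higher by edgeR, where 5.58% of tested genes were called in either direction. Without lean tumor 4 after ETS, 1 was called. Gvin1, at 2.21 ± 0.42 in log2, was among the 2, while Mx1, an antiviral GTPase, was 1.19 ± 0.44 and was not called.

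Of 8 other genes of vacuole and cell-autonomous defence, 7 passed the filter, of which 5 were called lower after ETS in lean tumors, against 22.8% of tested genes, and 5 higher in obese tumors, against 21.2%. The obese count was 1 without obese tumor 4 after ETS and 2 or 3 without each of 10 other tumors. Nos2, the inducible nitric oxide synthase, was -3.27 ± 0.86 in lean tumors. In obese tumors it was at 1.15, 2.72, 1.24 and 4.47 CPM before therapy and 5.26, 0.903, 2.11 and 34.1 CPM after ETS, and the log2 difference of 2.14 ± 0.83 was 0.19 ± 0.55 without tumor 4 after ETS and not called. Trim21, a ubiquitin ligase, was -1.81 ± 0.23 in lean and 1.38 ± 0.23 in obese tumors.

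Summed fibroblast markers (6 genes) were at 512 to 2169, 88.4 to 583, 85.7 to 590.3 and 589 to 5629.9 CPM in lean tumors before and after ETS and obese tumors before and after ETS. Erythroid markers (4 genes) were at 83.5 to 378, 0 to 0.122, 673 to 10284 and 1.10 to 28.9 CPM in the same order. Endothelial markers (5 genes) were at 129.6 to 151, 116 to 134, 93.5 to 129 and 147 to 304 CPM. Neutrophil markers were at most 28.2 CPM, B cell markers 2.57 CPM and adipocyte markers 33.4 CPM in any tumor. Skeletal muscle markers reached 305 CPM and keratinocyte markers 110.0 CPM, both in obese tumor 2 after ETS. The other tumors of that group held at most 4.30 CPM of muscle markers and 0 CPM of keratinocyte markers. Muscle markers were also at 238 and 165 CPM in lean tumors 1 and 2 after ETS. They were at 165 and 42.1 CPM in lean tumors 2 and 4 before therapy.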
